A study of Mus musculus with 2 samples.

Results

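The genes that store and release fat from hepatocyte lipid droplets were compared between livers of wild-type (WT) and Gbp5 knockout (KO) mice given endotoxin with D-galactosamine. The 10 genes were the patatin lipases Pnpla2 and Pnpla3, the lipase inhibitor G0s2, the perilipins Plin2, Plin3, Plin4 and Plin5, and the CIDE genes Cidea, Cideb and Cidec. They were found by symbol, all 10 matched among 52636 Ensembl genes, and the set was chosen because Pnpla3 had far more reads in KO, so its own difference is a description and not a finding of this comparison. Both groups were C57BL/6 mice of 9 weeks that received 800 µg D-galactosamine (GalN) and 100 ng lipopolysaccharide (LPS) per g body weight. Their livers were taken 6 h later. The control genotype was labelled wild type and the other GBP5-/-, with no allele given. Gbp5 encodes an interferon-inducible GTPase, GalN sensitises the liver, and LPS is a bacterial endotoxin. RNA of 4 mice was pooled per genotype and sequenced as 1 library, so there are 2 libraries and no replicates. No difference below has a replicate check, none has a p-value, and the 95% intervals cover counting error only. They compare these libraries and not the genotypes.

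Triglyceride in a hepatocyte is held in droplets with a phospholipid surface, and proteins on that surface decide how fast it is broken down. Pnpla2 encodes adipose triglyceride lipase, which takes the first fatty acid off a triglyceride, is activated by the Abhd5 product and is held back by the G0s2 product. Perilipins coat the droplet and regulate access of lipases, CIDE proteins let droplets grow by passing lipid between them, and Pnpla3 is a close relative of Pnpla2 that sits on hepatocyte droplets and is known in mouse liver to be induced by feeding and repressed by fasting.

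The WT library held 19864848 reads on genes and the KO library 15750875, so 1 read was worth 0.0503 and 0.0635 CPM, the unit of reads scaled to library size, with the floor for a gene at 0 set at 3 reads, 0.151 CPM in WT and 0.190 in KO. Gbp5 itself had 3211 reads in WT and 873 in KO and was 2.92-fold lower in KO (interval 2.71 to 3.15), so reads of the targeted gene remained there. The count per gene does not show which exons they covered. All 8 hepatocyte markers examined were abundant in both libraries, with summed levels of 58493 CPM in WT and 96722 in KO. Most of these sums came from Alb, with 38384 and 69250 CPM, and the median log2 ratio of the 8 was 0.45. Each marker was higher in KO. The exception was Cyp2e1, at -0.15 on the log2 scale after a correction that subtracts the median of genes with like GC content and transcript length. Among 14062 genes at 1 CPM or more in either library the median log2 ratio of KO to WT was -0.07, and 45.9% lay above 0. Genes with GC-rich transcripts were lower in KO. Over 10 bins of GC content the median log2 ratio was 0.30 in the lowest and -0.87 in the highest, and Spearman's rho across genes, which are not independent replicates, was -0.46.

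Promoter sequences are shown for the 3 genes that differed most between the libraries, Pnpla3, Plin4 and G0s2. Each is the 250 bases before the transcription start in RefSeq on GRCm38.p6, written 5′ to 3′ on the strand of the gene. Capitals mark matches to the motifs listed after the sequences.
Pnpla3, chr15:84167566-84167815, plus strand: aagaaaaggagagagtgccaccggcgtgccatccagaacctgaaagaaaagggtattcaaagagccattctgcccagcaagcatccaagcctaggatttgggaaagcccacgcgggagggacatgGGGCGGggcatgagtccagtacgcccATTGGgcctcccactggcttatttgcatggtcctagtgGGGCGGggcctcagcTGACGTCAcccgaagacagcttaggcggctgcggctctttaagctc
Plin4, chr17:56109783-56110032, minus strand: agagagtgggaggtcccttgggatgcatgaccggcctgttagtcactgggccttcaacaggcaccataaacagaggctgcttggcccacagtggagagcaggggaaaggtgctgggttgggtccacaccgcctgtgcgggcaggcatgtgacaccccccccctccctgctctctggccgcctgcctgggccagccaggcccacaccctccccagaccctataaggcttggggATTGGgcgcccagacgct
G0s2, chr1:193273189-193273438, minus strand: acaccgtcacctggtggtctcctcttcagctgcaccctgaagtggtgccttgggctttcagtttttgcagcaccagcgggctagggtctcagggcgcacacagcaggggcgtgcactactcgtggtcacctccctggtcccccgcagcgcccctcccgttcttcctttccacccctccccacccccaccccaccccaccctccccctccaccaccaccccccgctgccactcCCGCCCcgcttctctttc

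The 7 motifs were searched on both strands in 32851 promoter windows of this length. The cyclic AMP response element TGACGTCA lay 46 bases before the start of Pnpla3, and 1.55% of all windows held it. It was found in no other window among the 9 members with a RefSeq entry. Pnpla3 also held the GC box GGGCGG at 125 and 61 bases before the start, a motif in 32.7% of all windows, and CCAAT on the minus strand at 99 bases, a motif in 33.8%. Plin4 held a single CCAAT match, on the minus strand 18 bases before the start, and G0s2 a single GC box. Across these 9 members, 6 held a GC box, 5 a CCAAT box and 1, Cideb, the TATA box TATAAA, a motif in 12.4% of all windows. In Cidec none of the 7 was found. The RefSeq start of Plin3 lay 2362 bases from the gene start in the annotation used for its coordinates. Plin5 and Cidec had 2 RefSeq entries each, and 1 window is described for each. The sterol regulatory element TCACCCCAC, the E-box CACGTG and the C/EBP motif TTGCNNAA were in no member's window. Their shares of all windows were 0.496%, 6.02% and 9.56%. These matches describe letters in a short window and say nothing of the factors that bind there.

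Of the 10 genes, 9 reached 1 CPM, and each of the 9 did so in both libraries. Pnpla3 was at least 2-fold higher in KO and Plin4 at least 2-fold lower, and 7 differed by less than 2-fold. Among all 14062 genes 4.63% were at least 2-fold higher and 12.4% at least 2-fold lower, and because the set was chosen from this contrast nothing is read from its counts. The median log2 ratio of the 9 was 0.22, with a range from -2.24 to 3.21, and 6 lay above 0. The counting interval lay above a ratio of 1 for 5 genes, below it for 3 and across it for Cidec.

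**Figure D1:**
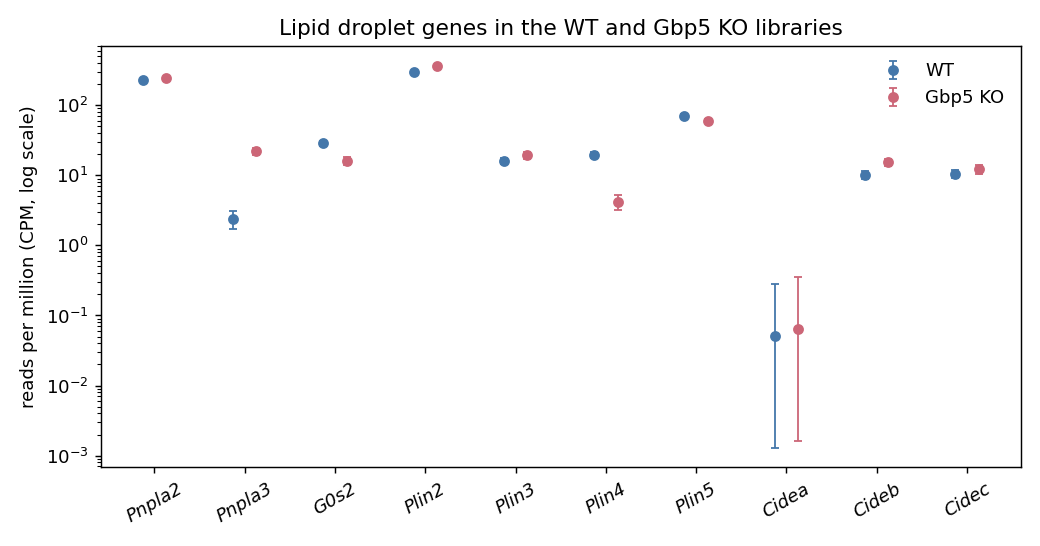
Level of each lipid droplet gene in the WT (blue) and Gbp5 KO (red) library, in CPM on a log axis, 1 library per group, with exact 95% Poisson intervals for counting error. Pnpla3 moves from 2.37 to 21.9 and Plin4 from 19.5 to 4.13, while Pnpla2 and Plin2 stay above 200 in both libraries and Cidea rests on 1 read in each.

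Per length of transcript, the same genes led in both libraries. In WT, Plin2 had 84.2 FPKM, which is CPM per kilobase of exon, Pnpla2 74.9, Plin5 33.8 and G0s2 32.7. Cideb followed with 6.77 FPKM, Cidec with 5.67, Plin3 with 4.23, Plin4 with 3.38 and Pnpla3 with 1.53. In this order Plin5 and G0s2 could not be separated by their counting intervals, nor could Cideb and Cidec. In KO, Plin2 had 104 FPKM, Pnpla2 81.3, Plin5 28.7 and G0s2 18.5. Pnpla3 was now the fifth with 14.1 FPKM, ahead of Cideb with 10.2, Cidec with 6.60, Plin3 with 5.15 and Plin4 with 0.71, and there the intervals of Cidec and Plin3 overlapped. Among all measured genes Pnpla3 stood above 32.6% of FPKM levels in WT and above 82.1% in KO, whereas Plin4 stood above 51.8% and 19.0%. Plin2 lay above 95.4% and 96.3%, among the more abundant transcripts of both livers.

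Pnpla3 (ENSMUSG00000041653) lies on the plus strand of GRCm38 chromosome 15, from 84167837 to 84187236, with 10 exon blocks. Its reads numbered 47 in WT and 345 in KO, which is 2.37 CPM (1.74 to 3.15) and 21.9 CPM (19.7 to 24.3). The KO library was higher by 9.26-fold (6.81 to 12.8), a log2 ratio of 3.21. Among 11299 genes with 100 reads or more over both libraries, 14 including Pnpla3 had a ratio as high. Of the 446 genes in the same bin of GC content and transcript length, Pnpla3 was the highest, and the median of that bin was -0.49. On the scale log2(FPKM + 1), which shrinks differences of low genes, its difference was 2.58. The set was chosen because of this gene's difference, so its ranks only describe it.

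Pnpla2 (ENSMUSG00000025509), on chromosome 7 from 141455198 to 141460743 on the plus strand, hardly differed in size. Its 4493 reads in WT and 3867 in KO gave 226 and 246 CPM, a ratio of 1.09 (1.04 to 1.13). The counting interval is narrow because the gene is abundant, and it does not include the variation between pools of animals. Within a library, Pnpla3 amounted to 2.04 FPKM per 100 FPKM of Pnpla2 in WT and to 17.4 in KO. That ratio of ratios, 8.53 (6.25 to 11.9), does not depend on how the libraries were scaled. Even so Pnpla2 made up 85.2% of the FPKM of both lipases in KO, against 98.0% in WT.

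G0s2 (ENSMUSG00000009633), whose product inhibits the Pnpla2 lipase, lies on the minus strand of chromosome 1 from 193272161 to 193273217. With 566 reads in WT and 254 in KO it stood at 28.5 and 16.1 CPM and was 1.77-fold lower in KO (1.52 to 2.06). Abhd5, the co-activator of the same lipase, was on the other side, with 424 and 575 reads and a ratio of 1.71 (1.51 to 1.94). Set against Pnpla2 in the same library, G0s2 went from 43.7 to 22.8 FPKM per 100 FPKM of Pnpla2, 1.92-fold lower in KO (1.64 to 2.25). Abhd5 went from 4.79 to 7.54 per 100, a ratio of 1.58 (1.38 to 1.80). Before any correction, the inhibitor's transcript was therefore lower and the activator's higher per lipase transcript in the KO library. After the correction for GC content and length, Abhd5 was at 0.65 and Pnpla2 at 0.62 on the log2 scale. The activator's higher level per lipase transcript thus depends on that correction. G0s2 lay 0.58 below the median of genes of like GC content and length on the log2 scale. It overlaps Lamb3 on the opposite strand in the annotation, with no shared exon base, and Lamb3 had only 78 and 32 reads.

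Plin2 (ENSMUSG00000028494), the main perilipin of liver droplets, lies on the minus strand of chromosome 4 from 86648386 to 86670060. Its 5874 reads in WT and 5740 in KO gave 296 and 364 CPM, a ratio of 1.23 (1.19 to 1.28). Plin3 (ENSMUSG00000024197), a broadly expressed perilipin that moves between cytosol and droplets and lies on chromosome 17 from 56277476 to 56292873, had 318 and 307 reads, or 16.0 and 19.5 CPM, a ratio of 1.22 (1.04 to 1.43). Both were thus slightly higher in KO. Plin5 (ENSMUSG00000011305), which tethers droplets to mitochondria in oxidative tissues, had 1401 and 943 reads, or 70.5 and 59.9 CPM, 1.18-fold lower in KO (1.08 to 1.28). Its direction turned with the correction for GC content and length, from a log2 ratio of -0.24 to 0.26. Plin2 made up 67.0% of the FPKM of the 4 perilipins in WT and 75.02% in KO, and Plin5 made up 26.9% and 20.7%.

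Plin4 (ENSMUSG00000002831) stood apart from the other perilipins. It is known mainly from adipocytes and muscle, where its long repeat of amphipathic helices coats droplets. It lies on the minus strand of chromosome 17 from 56100591 to 56109803, with only 1798 bases between it and Plin5, which ends at 56117596. Its reads numbered 388 in WT and 65 in KO, which is 19.5 CPM (17.6 to 21.6) and 4.13 CPM (3.18 to 5.26). The KO library was lower by 4.73-fold (3.63 to 6.25), a log2 ratio of -2.24. Of 11299 genes, 60 including Plin4 were as low. Of the 259 genes in its bin of GC content and length, Plin4 was the lowest, and the bin's median was -0.73. Corrected for that median the log2 ratio was -1.51, and on log2(FPKM + 1) it was -1.35, so its size depends on the scale. Set against Plin5 next to it, Plin4 was 4.02-fold lower in KO (3.04 to 5.38).

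Most markers of adipocytes were also lower in KO, by different amounts. Of the 11 genes of that list, 7 had over 3 reads in a library and all 7 were lower in KO, with the exception of Fabp4 in totals without the 50 most abundant genes, and 4 were at 3 reads or fewer in both. Adipoq, which encodes adiponectin, had 17 reads in WT and 1 in KO, Lep 13 and 0, Retn 5 and 1, and Cfd, the protease adipsin, 209 and 20. Together these 4 adipokine genes, with most of their reads from Cfd, were 8.79-fold lower (5.68 to 14.3). They had the 4 lowest ratios of the 7 and their sum was not planned, so it only describes these genes and not the list. Lpl was 2.47-fold lower (2.17 to 2.81), Car3 1.14-fold (1.13 to 1.16) and Fabp4 1.07-fold, with an interval from 0.987 to 1.15. Plin1, the defining perilipin of fat cells, had 2 and 0 reads, the brown fat gene Ucp1 3 and 1, Cidea 1 and 1, and Adig 1 and 3. The summed level of the whole list was 2832 CPM in WT and 2453 in KO, most of it from Car3, which liver also expresses. The part of adipocytes in the Plin4 difference was not tested, and in bulk tissue fewer cells of a type cannot be told apart from less RNA per cell.

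**Figure D2:**
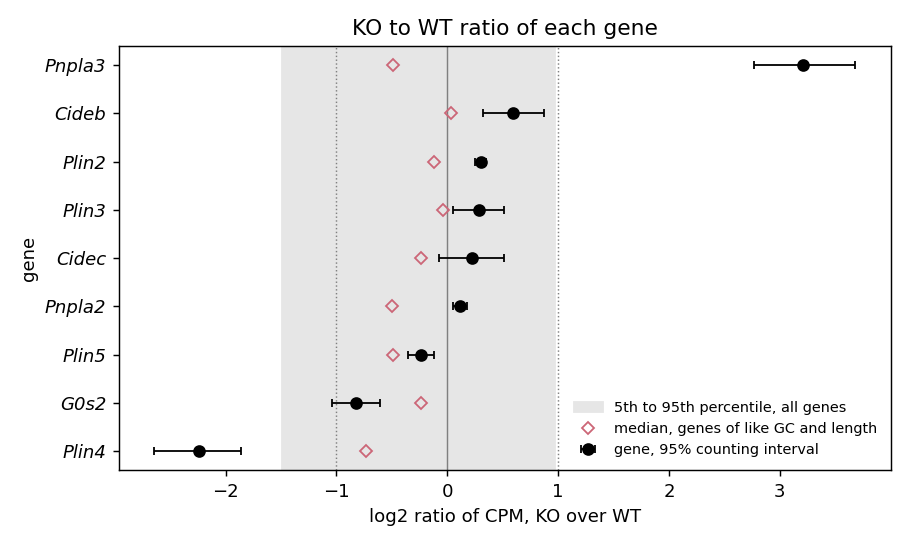
Log2 ratio of CPM, KO over WT, for the 9 lipid droplet genes with over 3 reads in a library (black points, 95% counting intervals, 1 library per group). Open diamonds give the median of genes with like GC content and transcript length, the grey band spans the 5th to 95th percentile of all genes at 1 CPM or more, and dotted lines mark 2-fold. Pnpla3 at 3.21 and Plin4 at -2.24 lie outside the band and the other 7 inside it.

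The CIDE genes differed by less than 2-fold or could not be measured. Cideb (ENSMUSG00000022219), the CIDE gene of hepatocytes that takes part in loading lipid onto very low density lipoprotein, had 200 WT reads and 240 KO reads, which is 10.1 and 15.2 CPM and a ratio of 1.51 (1.25 to 1.84). Its value is uncertain, because 76.3% of its exon bases on chromosome 14 overlap exons of Nop9 on the opposite strand and the strand setting of the counting is not known. Nop9 was 1.46-fold lower (1.18 to 1.81). Cidec (ENSMUSG00000030278), also called Fsp27, which enlarges droplets by fusion, lies on chromosome 6 and had 209 and 193 reads, or 10.5 and 12.3 CPM. Its ratio of 1.16 had an interval from 0.953 to 1.42, which spans a ratio of 1 and covers counting error only. Cidea (ENSMUSG00000024526), a brown fat gene on chromosome 18, had 1 read in each library, at or under the floor of 3 reads, and no ratio is given.

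The neighbours of Pnpla3 on chromosome 15 also had more reads in KO, by different amounts. Samm50, a mitochondrial outer membrane assembly gene that begins 5005 bases beyond the end of Pnpla3, had 1937 and 2234 reads and a ratio of 1.45 (1.37 to 1.55). Pnpla3 was 6.36-fold higher in KO relative to Samm50 (4.65 to 8.88). Pnpla5, a further patatin gene 44.7 kb to the other side, had 1 WT read and 10 KO reads, a ratio of 12.6 (1.79 to 547). Mir6392, a microRNA gene annotated inside Pnpla3 without sharing an exon base, had 4 and 21 reads, a ratio of 6.62 (2.23 to 26.5). No exon base of Pnpla3 overlapped an exon of another annotated gene, so its count is not shared with these. At the other locus, Lrg1, which encodes an acute-phase glycoprotein and lies beside Plin5, differed by 1.12-fold, and Hdgfl2, which overlaps the end of Plin4 by 17 exon bases on the opposite strand, was 2.36-fold lower (2.04 to 2.74).

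The 5 genes whose ratio was nearest to that of Pnpla3, among those with 100 reads or more, were Gm2606, Egfros, Flrt3, Kcnq1ot1 and Ovol1. Their log2 ratios were 3.15, 3.14, 3.33, 2.98 and 2.83. Gm2606 is annotated as a processed pseudogene and Egfros and Kcnq1ot1 as antisense RNAs, while Flrt3 and Ovol1 encode proteins. Likeness over 2 libraries is a single ratio, so this list gives only the genes nearest in the size of that ratio.

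All 10 genes had transcripts richer in GC than the median measured gene at 49.7%, with values from 51.1% for Plin3 to 58.9% for Plin5. The medians of their bins ran from -0.73 to 0.03, and subtracting them left 7 of the 9 measured genes above 0, with a median of 0.42. Of all 14062 measured genes, 50.3% lay above 0 after the same step, with a median of 0.004. Because the set was chosen from this contrast, nothing is read from its count here either. Pnpla2 went from 0.12 to 0.62 and Plin2 from 0.30 to 0.42, while Pnpla3 went to 3.70. Subtraction of a bin median takes out real differences tied to base composition too, and the cause of the trend was not tested.

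**Figure D3:**
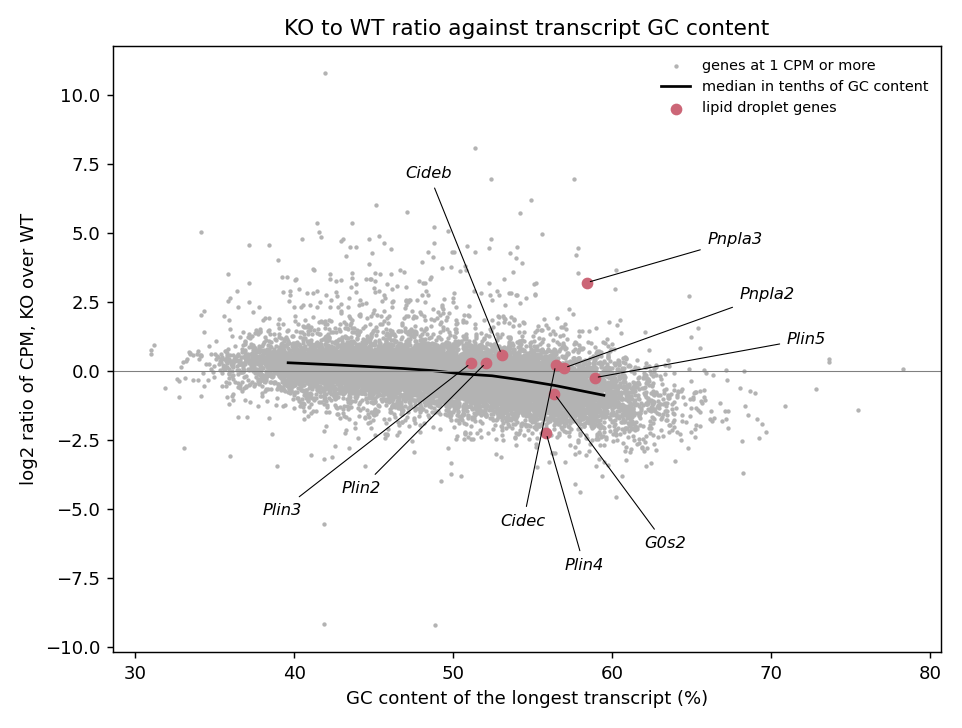
Log2 ratio of CPM, KO over WT, against GC content of the longest transcript in percent for genes at 1 CPM or more (grey), with the median in 10 bins of GC content (black line) and the 9 measured lipid droplet genes (red, labelled). Pnpla3 at 58.4% GC lies far above the line, Plin4 at 55.9% below it.

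Other genes of droplet metabolism were described by lists, beside the 14062 measured genes with 45.9% above 0, 4.63% at least 2-fold higher and 12.4% at least 2-fold lower. Of 6 further patatin and perilipin genes, 3 were measured. Pnpla6, a lysophospholipase, was 2.58-fold lower (2.28 to 2.93) and short of 2-fold after the correction, at a log2 ratio of -0.91. Pnpla7 had a ratio of 1.15 and Pnpla8 of 1.31. Pnpla1 had 3 reads in WT and 0 in KO. Of 21 genes of droplet formation and triglyceride synthesis, 19 were measured, of which 12 lay above 0 and the median log2 ratio was 0.19. At least 2-fold higher were 2 of them, and 1 was at least 2-fold lower. Lpin1, a phosphatidate phosphatase, was 2.15-fold higher (2.05 to 2.25) and Gpat3, an acyltransferase, 2.06-fold higher (1.24 to 3.45) on 27 and 44 reads. Fitm1, a membrane protein that helps droplets form, was 2.36-fold lower (2.16 to 2.59) and Lpin3 1.84-fold lower. The correction for GC content and length moved Fitm1 from a log2 ratio of -1.24 to -0.75.

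For lipolysis, lipophagy and lipoprotein loading 13 of 20 genes lay above 0, and the median was 0.09. None was at least 2-fold higher, and 1 was lower by that much. Tm6sf2, needed for full loading of lipoproteins, had a ratio of 1.86 (1.64 to 2.11), and Abhd5 came next. The lowest were Tfeb, a regulator of lysosome genes, 2.91-fold lower (2.36 to 3.62) and at -0.39 on the log2 scale after the correction, and Aup1, 1.44-fold lower, whose log2 ratio turned from -0.52 to 0.40 with the correction. Of 22 other droplet surface genes 13 lay above 0, and the median was 0.08, or -0.06 after the correction. None was at least 2-fold higher, and 2 were lower by that much. Rdh10, a retinol dehydrogenase, was 2.93-fold lower (2.58 to 3.33), Lpcat1 2.01-fold lower (1.49 to 2.76), and Acsl3 and Ldah had ratios of 1.64 and 1.51. Lpcat1 fell short of 2-fold after the correction, at a log2 ratio of -0.68, and 1 gene of the list was lower by that much then, as it was under TMM scaling, without mitochondrial genes, without the 50 most abundant genes and on log2(FPKM + 1).

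The list of SREBP-1c, ChREBP and LXR, factors known to control Pnpla3 in mouse liver, and of their targets had the highest median of the 6 pathway lists, 0.38. Of 26 measured, 18 lay above 0, 3 were at least 2-fold higher and 2 at least 2-fold lower. Me1, the malic enzyme that supplies NADPH, was 2.14-fold higher (2.02 to 2.27), G6pc, the last enzyme of glucose release, 2.11-fold higher, and Txnip was the other of the 3. After the correction 5 genes of the list were at least 2-fold higher and 0 lower, with Me1 at 0.95 and G6pc at 0.89 on the log2 scale and so no longer among them. In totals without the 50 most abundant genes 7 were higher and 1 was lower. Srebf1 had 2091 and 1716 reads and a log2 ratio of 0.05, Mlxipl, which encodes ChREBP, was 2.21-fold lower (2.14 to 2.29), Nr1h3, the liver X receptor alpha gene, had a log2 ratio of -0.40 and Nr1h2 was 2.02-fold lower. After the correction Srebf1 was at 1.20, Mlxipl at -0.41, Nr1h2 at -0.09 and the list median at 0.66, so the level of the regulators depends on it. Against Scd1, an abundant target of the same factors with a log2 ratio of 0.98, Pnpla3 was 4.70-fold higher in KO (3.46 to 6.52).

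Targets of PPAR alpha, the fatty acid sensor behind the fasting response, to which Plin2, Plin5, Cidec and G0s2 respond in mouse liver, had a median of 0.30, or 0.19 after the correction. Of 24 measured, 19 lay above 0, 2 were at least 2-fold higher and 1 at least 2-fold lower. Cyp4a14, a fatty acid hydroxylase, was 2.25-fold higher (2.09 to 2.41) but at a log2 ratio of 0.91 once corrected, which left 1 gene of the list at least 2-fold higher. The hormone gene Fgf21, which reached 1 CPM in KO alone, had 6 and 16 reads and a ratio of 3.36 (1.25 to 10.5). The thioesterase genes Acot2 and Acot1 were 2.06-fold and 1.83-fold lower. Ppara had a log2 ratio of 0.42 and Pparg of 0.30.

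**Figure D4:**
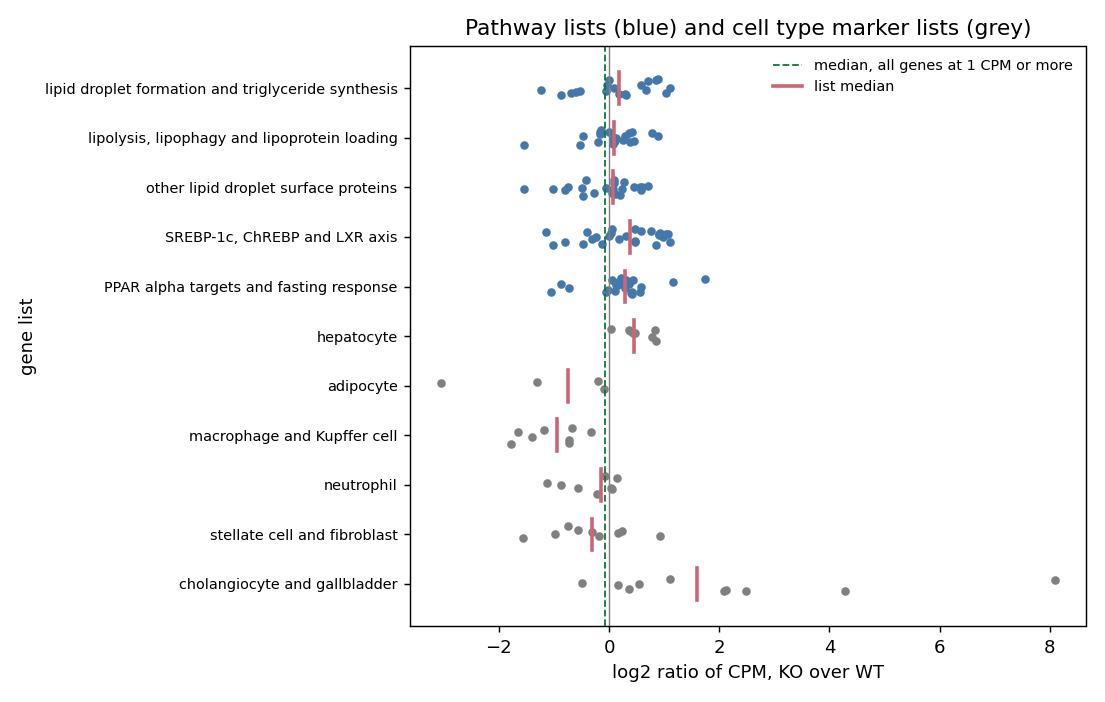
Log2 ratio of CPM, KO over WT, for each measured gene of the pathway lists (blue) and cell type marker lists (grey) with 4 or more measured genes. Red bars are list medians and the dashed line is the median of all genes at -0.07. The SREBP-1c, ChREBP and LXR list has its median at 0.38, hepatocyte markers at 0.45 and cholangiocyte and gallbladder markers at 1.60. Macrophage markers have theirs at -0.95 and adipocyte markers at -0.75, the latter over only 4 measured genes.

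Other cell types present in the tissue moved as follows beside these genes. All 8 macrophage and Kupffer cell markers were lower in KO, with a summed level of 1205 CPM in WT and 503 in KO. Neutrophil markers, 5 of 8 of them lower, summed to 425 and 336 CPM, and stellate cell and fibroblast markers, 6 of 9 lower, to 905 and 839 CPM. Markers of cholangiocytes and gallbladder were higher in KO for 9 of 10 genes, with summed levels of 163 and 574 CPM. Dmbt1 alone had 1.01 CPM in WT and 274 in KO, and the other 9 genes summed to 162 and 299.8 CPM. Of the 9 pancreatic acinar genes, 6 were at 3 reads or fewer in both libraries. The others did not share a direction. Ctrb1 had 0 reads in WT and 297 in KO, and Cela2a had 6 and 9. Cela1 had 521 and 328 and was 1.26-fold lower in KO (1.09 to 1.45). Muscle markers were close to 0, with 29 reads in WT and 17 in KO over 6 genes. After the correction all 8 neutrophil markers were lower, 4 of 9 stellate cell and fibroblast markers were lower, and 8 of 10 cholangiocyte and gallbladder markers were higher. The part of these cell types in the values of the lipid droplet genes was not tested.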

How the data were processed

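Messenger RNA of mouse liver was measured in 2 libraries. The submitters' processing notes name HTSeq 0.6.1, TopHat2 and the build GRCm38. Which annotation, strand option and filters went into the counting is not given in the sources used here. Files deposited by the authors are named for FPKM but hold whole-number read counts per gene, so they were used as raw counts. Of 52845 rows, 209 carried no Ensembl gene (0.652% of counts in WT, 0.496% in KO) and were left out of totals. Another 147 Ensembl rows were not in the annotation, kept their reads in the totals and were not compared.

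CPM was computed over all Ensembl rows, and FPKM with the union of exons in GENCODE M21 as length. Ratios carry exact 95% Clopper-Pearson intervals conditional on the summed reads. Reads without molecular identifiers are not independent molecules. With 1 library per group nothing was tested, and 2-fold is a rule of size. The correction subtracted the median log2 ratio in a grid of 10 bins of GC content and 4 of length, taken over genes with at least 100 reads. Steps were tested on simulated data. The alternatives were other scalings, totals, filters and folds, and, chosen after seeing the data, WT thinned to the KO depth.

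The members and lists were chosen with earlier results of these data known. Genes named are the members, their neighbours and regulators, the 2 highest and 2 lowest of each pathway list and the 5 genes nearest to Pnpla3; Scd1, Txnip, and the marker genes named singly were chosen after their values were seen. All 186 symbols of the 6 pathway and 8 marker lists were found. Python 3.11.15, numpy 2.4.6, pandas 2.3.3, scipy 1.17.1 and, for TMM factors alone, edgeR 4.0.16 in R 4.3.3 were used.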

Additional observations from a re-analysis of the deposited data

How the results depend on the processing

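Pnpla3 kept its direction and stayed past 2-fold in KO under every alternative run, with log2 ratios from 2.58 on log2(FPKM + 1) to 3.70 after the correction for GC content and length. Plin4 did so on the lower side, from -2.24 to -1.35 on log2(FPKM + 1), with -1.51 after the correction. At 1.5-fold, 2 members were higher (Pnpla3 and Cideb) and 2 lower (Plin4 and G0s2). Of all 14062 genes, 1751 were higher and 3500 lower by that rule, and nothing is read from the counts of the members. Cideb passed narrowly, with a ratio of 1.51, and its value is uncertain because of the overlap with Nop9. Plin5 changed direction with the correction, from -0.24 to 0.26. G0s2 ranged from -0.85 to -0.58, Pnpla2 from 0.11 to 0.62, Plin2 from 0.30 to 0.42, Plin3 from 0.23 to 0.39, Cideb from 0.53 to 0.70 and Cidec from 0.17 to 0.46. Of the 6 pathway lists, 5 kept a median above 0 under every alternative, and that of other droplet surface genes was -0.06 after the correction.

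The number of all genes at least 2-fold higher, 651, was 1077 with totals without the 50 most abundant genes, 289 on log2(FPKM + 1), 1902 without a filter, 194 at 5 CPM or more and 1751 at 1.5-fold. The number lower, 1748, was 949 after the correction, 788 on log2(FPKM + 1), 2609 without a filter, 1209 at 5 CPM or more and 3500 at 1.5-fold. Lower genes were 72.9% of these calls, and 60.3%, 57.8%, 86.2% and 56.7% without the 50 most abundant genes, without a filter, at 5 CPM or more and after the correction. Leaving out the 50 most abundant genes raised the median of all genes by 0.107, and no other alternative moved it by over 0.1. No paired analysis was possible because each group has 1 library. Depth limits genes with few reads, among them Cidea, Pnpla1, Pnpla5, Fgf21 and Mir6392.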
